A study of Mus musculus with 7 samples.

Results

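The 7 genes described here encode the working parts of the cytotoxic granule and the signals that killer lymphocytes release, and they were taken by symbol from a feature list of 33696 genes. They are Gzma, Gzmb and Gzmk (serine proteases of the granule), Prf1 (perforin, which forms pores in the target membrane), Nkg7 (a granule membrane protein needed for granule release), Ifng (interferon gamma) and Fasl (the ligand of the death receptor Fas). Each symbol matched 1 feature. Their unique molecular identifiers (UMIs) were counted in single cells of 7 mouse tumors.

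The tumors were subcutaneous allografts of JW23.3, a malignant peripheral nerve sheath tumor (MPNST) cell line with mutant Nf1 and Trp53, in female C57/B6 mice aged 5 to 6 weeks. Cells were implanted on day 0 into every mouse, the groups were formed at random on day 7, and all tumors were harvested on day 21. The irradiated group (n = 4) received 2 Gy a day in 5 fractions, and the control tumors (n = 3) were untreated. JW23.3 is 1 line, so all 7 tumors share its genotype, and each library is 1 tumor.

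Killer lymphocytes store perforin and granzymes in granules that fuse with the membrane facing a target cell. Perforin lets granzymes into the target, where granzyme B cleaves caspases and Bid. CD8 T cells and NK cells use this route together with Fas ligand, and CD4 T cells and regulatory T cells can carry parts of it.

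Cells were assigned by marker genes that are not among the 7. T cells held UMIs of at least 2 of 6 T cell receptor complex genes, Cd3d, Cd3e or Trac among them. They were split into a CD8 gate (Cd8a or Cd8b1 without Cd4 or Foxp3, 290 cells), a CD4 gate (Cd4 without Foxp3 or Cd8, 257 cells) and a Foxp3 gate (Foxp3 without Cd8, 191 cells). The other 446 T cells entered no gate. A Cd4 UMI was found in 49.7% of Foxp3 gate cells, so markers can be missed. Cells that express Foxp3 without a Foxp3 UMI may thus lie in the CD4 gate. A gate meant for NK cells asked for 2 of 10 NK cell receptor and signaling genes and no Cd3d, Cd3e or Trac (179 cells). Together the 4 gates held 917 of 32115 retained cells. The 7 libraries held 2859 to 8452 cells each, at a median of 6058.5 to 17930.5 UMIs per cell. Levels below are UMIs of the gene per 1000000 UMIs of the gated cells of a tumor (CPM), and every comparison between groups or gates was made over tumors. The labels do not say that the mice were handled in separate experiments, so p-values measure the spread between these tumors.

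The gate meant for NK cells went against its label. Only 58 of its 179 cells held a UMI of Ncr1 or Klrb1c, which encode the NK receptors NKp46 and NK1.1. In the other 121 cells Flt3 was found in 51.2% and Fcgr1 in 34.7%, genes of dendritic cells and of macrophages, against 0 of the 58 cells for both. The macrophage genes Csf1r and Lyz2 were found in 22.3% and 33.1% of the 121 cells and in 5.17% and 27.6% of the 58. Klrd1 and Klrk1, which the gate itself asks for, were found in 93.4% and 95% of the 121 cells and in 77.6% and 91.4% of the 58. The whole gate is therefore called the NK-receptor gate, and its main results are also given for the 58 cells with Ncr1 or Klrb1c. A count of 0 of 58 allows a share of cells with a UMI of up to 5.17%, which is no limit on cells that express the gene. Trbc1, a T cell receptor gene, was found in 75.9% of the 58 cells, in 3.31% of the other 121 and in 45.9% of CD8 gate cells, so the 58 cells are given no cell type name.

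The 250 bases before the RefSeq start (GRCm38.p6) are shown for Gzma, Gzmb, Prf1 and Fasl, 5′ to 3′ on the strand of the gene, because the levels of these 4 genes over the gates are set against each other below. Capitals mark TGTGGT (bound by RUNX factors), AGGTGT (bound by T-box factors) and TGANTCA (bound by AP-1), each on either strand. The windows are chr13:113100982-113101231 for Gzma and chr14:56262335-56262584 for Gzmb, both on the minus strand. They are chr10:61297586-61297835 for Prf1 on the plus strand and chr1:161788496-161788745 for Fasl on the minus strand.
Gzma: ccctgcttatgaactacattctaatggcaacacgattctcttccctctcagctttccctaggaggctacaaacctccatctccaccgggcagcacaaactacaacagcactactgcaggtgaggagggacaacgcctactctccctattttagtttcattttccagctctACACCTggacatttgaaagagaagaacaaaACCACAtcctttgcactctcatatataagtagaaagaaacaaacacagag
Gzmb: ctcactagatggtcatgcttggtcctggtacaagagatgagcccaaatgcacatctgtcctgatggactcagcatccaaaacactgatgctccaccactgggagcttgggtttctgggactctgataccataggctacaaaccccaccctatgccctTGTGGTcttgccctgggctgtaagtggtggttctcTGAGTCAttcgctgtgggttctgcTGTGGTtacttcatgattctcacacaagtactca
Prf1: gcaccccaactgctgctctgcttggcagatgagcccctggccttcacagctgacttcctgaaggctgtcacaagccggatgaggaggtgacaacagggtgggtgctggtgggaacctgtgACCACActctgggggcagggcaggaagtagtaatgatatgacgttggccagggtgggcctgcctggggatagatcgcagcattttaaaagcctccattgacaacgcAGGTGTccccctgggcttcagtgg
Fasl: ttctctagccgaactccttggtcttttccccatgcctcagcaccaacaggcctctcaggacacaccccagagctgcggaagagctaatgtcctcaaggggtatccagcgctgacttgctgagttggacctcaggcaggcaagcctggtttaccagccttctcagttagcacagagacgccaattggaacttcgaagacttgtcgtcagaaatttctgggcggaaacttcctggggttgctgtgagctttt

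Prf1 and Gzma each held 1 RUNX motif and 1 T-box motif, and Gzmb held 2 RUNX motifs and 1 AP-1 motif. None of these motifs stood in the Fasl or Ifng windows. Over all 7 members, 4 windows held a RUNX motif and 4 a T-box motif, against 14% and 11.8% of 32851 promoter windows of the same length. The AP-1 motif stood in 1 of the 7 windows and in 6.75% of all windows. A match is a description of the letters and not a bound site. For Gzmb, Gzmk and Prf1, bases just after the RefSeq start were not found in the GENCODE vM21 transcripts, so the starts may differ. The GENCODE model of Gzmb begins at chr14:56262260, and the bases next to that start are not shown.

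Nkg7 was found in 93.4% of CD8 gate cells, the highest share of any member in any of the 4 gates. Its level was 1403, 1036, 1633 and 1535 CPM in the CD8 cells of irradiated tumors 1 to 4 and 1602, 1034 and 1193 CPM in those of control tumors 1 to 3. In the CD4 gate it was 197, 292, 70.6 and 576 CPM in the irradiated and 163, 151 and 68.2 CPM in the control tumors. The lowest CD8 value lay above the highest CD4 value, in a comparison where 13.5% of all genes tested were called. Nkg7 was higher in CD8 than in CD4 cells by 2.82 ± 0.38 on the log2 scale (SE, adjusted p = 2.66e-05), and higher than in Foxp3 cells by 4.83 ± 0.46 (adjusted p = 1.27e-07). Comparisons of gates use edgeR's quasi-likelihood test with the tumor as a block, adjusted over all 6356 genes tested, or over 5822 genes where the NK-receptor gate is narrowed.

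Fasl and Prf1 were also higher in CD8 than in CD4 cells. Fasl stood at 289, 148, 188 and 174 CPM in the CD8 cells of the irradiated tumors and at 148, 200 and 139 CPM in those of the controls. In CD4 cells its range was 34.1 to 85.2 CPM over the 7 tumors, and no CD4 value reached a CD8 value. The difference was 1.72 ± 0.25 on the log2 scale (adjusted p = 1.85e-06). Prf1 was sparser, with 75 UMIs in all CD8 gate cells, and stood at 42.6, 14.8, 58.9 and 91.7 CPM in the irradiated and 23.7, 31.7 and 19.8 CPM in the control tumors. CD4 cells held 9 Prf1 UMIs, in 3 of the 7 tumors, and the difference was 2.46 ± 0.56 (adjusted p = 0.00134).

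Gzmb did not separate the 3 T cell gates. Its mean was 446 ± 109 CPM (SD, n = 7) in the CD8 gate, 405 ± 480 CPM in the CD4 gate and 369 ± 212 CPM in the Foxp3 gate. The log2 difference was 0.60 ± 0.58 between CD8 and CD4 (adjusted p = 0.607), 0.41 ± 0.59 between CD8 and Foxp3 (adjusted p = 0.705) and -0.19 ± 0.60 between CD4 and Foxp3 (adjusted p = 0.952). The approximate 95% intervals of these differences, from a normal distribution, ran from -0.55 to 1.74, from -0.74 to 1.56 and from -1.36 to 0.98, so that differences of about 1 log2 unit were not resolved. A Gzmb UMI was found in 46.6% of CD8, 44% of Foxp3 and 21% of CD4 gate cells. After each cell was thinned to 1000 UMIs, which left out 5, 2 and 5 shallower cells, the shares were 26.7%, 29.6% and 13.1%. T cells outside the gates held 645 of all 3040 Gzmb UMIs. Cells with a missed Foxp3 UMI may lie in the CD4 gate, and their part in the CD4 values was not tested.

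Among the members, the Foxp3 gate held mainly Gzmb. All of its 191 cells together had 464 Gzmb and 59 Nkg7 UMIs, but 4 of Prf1, 3 of Gzma, 3 of Ifng, 1 of Fasl and 0 of Gzmk. Of the 191 cells, 73 held exactly 1 member and 1 held at least 3, whereas 156 of 290 CD8 cells held at least 3. Pooled over tumors, Fasl was 187 times higher in the CD8 than in the Foxp3 gate (95% counting interval 33.3 to 7420), and Ifng was 70.8 times higher (24 to 345). The Gzmk level in CD8 cells was at least 29.7-fold higher than in Foxp3 cells, taking 3 UMIs over the gate as the limit of a count of 0. Irradiated tumor 4 held every Fasl and Ifng UMI of the Foxp3 gate, and without it the CD8 level was at least 49.4-fold higher for Fasl, 58.5-fold for Ifng and 18.9-fold for Gzmk. These intervals and limits cover counting error only. Granule genes outside the members were mixed. Of 12 listed genes of granule content and exocytosis, 4 were called higher and 3 lower in CD8 than in Foxp3 cells. Their median difference was 0.39 log2 units, against 0.04 for all genes, of which 21.2% were called.

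Ifng and Gzmk were not called between CD8 and CD4 cells, but a larger share of CD8 cells held each. Pooled over tumors, Ifng was found in 116 of 290 CD8 and 39 of 257 CD4 cells, and Gzmk in 74 and 17. After thinning to 1000 UMIs the shares were 18.6% and 10.3% for Ifng and 9.12% and 3.17% for Gzmk. These shares were not tested. On simulated counts this comparison recovered 26 of 100 2-fold changes, so a missing call is no limit on changes of that size. Ifng stood at 403, 74, 184 and 174 CPM in the CD8 cells of the irradiated tumors and at 118, 106 and 327 CPM in those of the controls, and CD4 cells spanned 17.6 to 387 CPM. The ranges overlapped, and the log2 difference of 0.49 ± 0.41 did not pass the test (adjusted p = 0.53). Gzmk stood at 118, 0, 133 and 128 CPM in the CD8 cells of the irradiated tumors and at 11.8, 52.8 and 54.5 CPM in those of the controls. In CD4 cells it was 19.7, 11.7, 41.2 and 241 CPM in the irradiated and 0, 50.2 and 0 CPM in the control tumors. The log2 difference was 0.74 ± 0.50 (adjusted p = 0.411), and it was 1.72 (adjusted p = 0.0288) without irradiated tumor 4, whose CD4 cells held 54 of the 71 Gzmk UMIs of the gate.

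**Figure D1:**
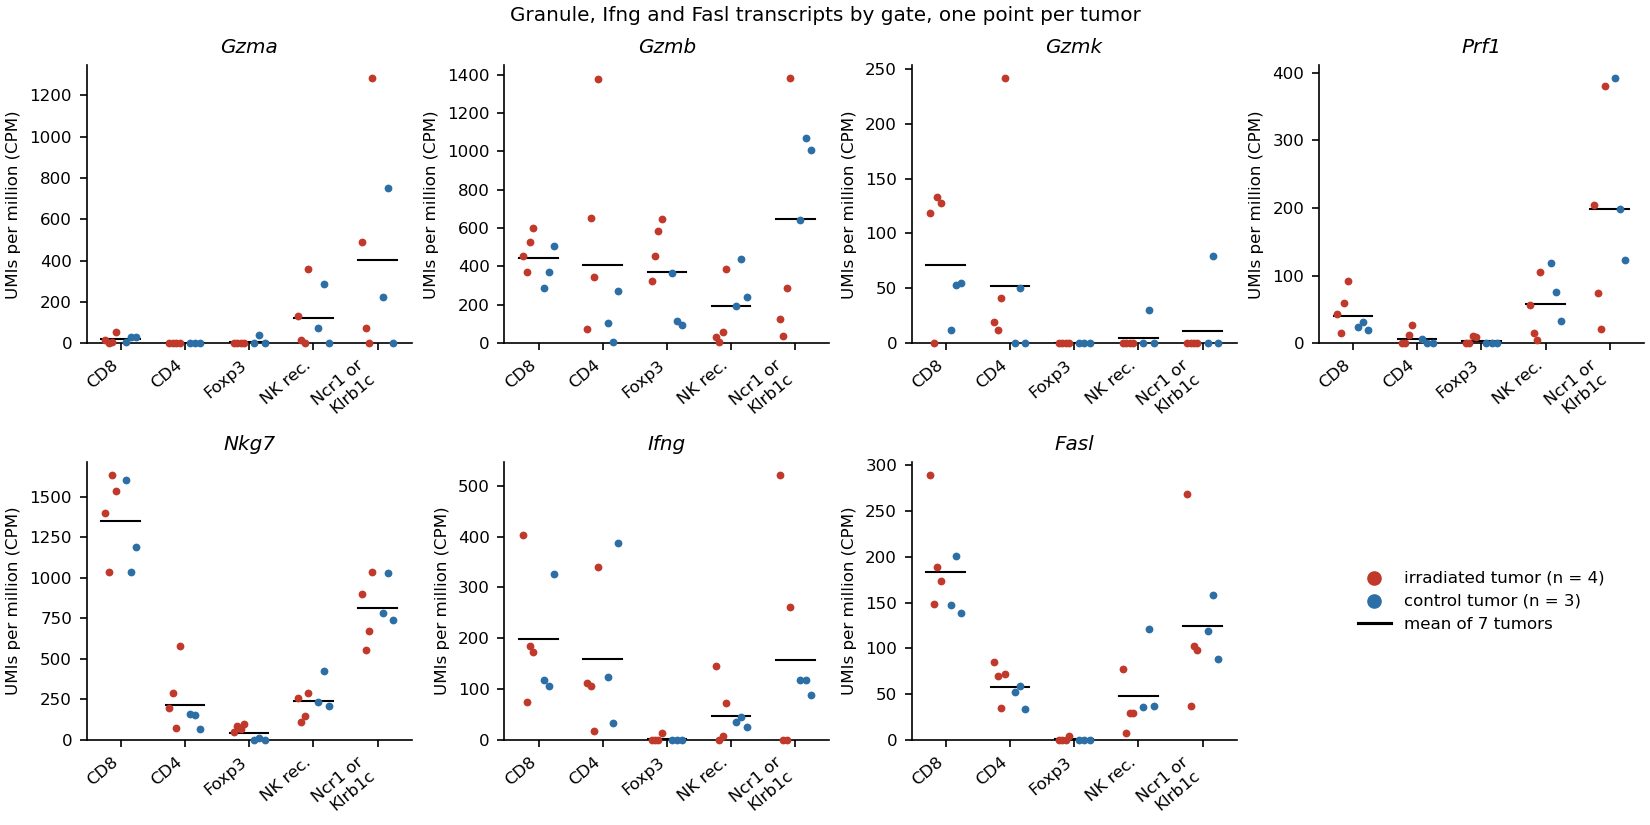
CPM of each gene (vertical axis, linear, own scale per panel) in the CD8, CD4, Foxp3 and NK-receptor gates and in the NK-receptor cells with Ncr1 or Klrb1c, with 1 point per tumor and a line at the mean of 7 tumors. Nkg7 in CD8 cells lies above all CD4 and Foxp3 values, Gzmb overlaps between the T cell gates, and Gzma is at 0 in CD4 cells of every tumor.

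Gzma was the only member that was called higher in the NK-receptor gate than in the CD8 gate. It held 255 UMIs there, 36 in CD8 cells, 3 in Foxp3 cells and 0 in CD4 cells. Of the 255, 253 lay in the 58 cells with Ncr1 or Klrb1c, where Gzma stood at 489, 73.7, 0 and 1282 CPM in the irradiated and 225, 751 and 0 CPM in the control tumors. The groups overlapped, with irradiated tumor 4 above every control. Gzma was lower in CD8 cells than in the NK-receptor gate by a log2 difference of -2.42 ± 0.54 (adjusted p = 0.00134), and by -4.03 ± 0.61 against the 58 cells (adjusted p = 0.000359). Irradiated tumor 2, with 4 of the 58 cells, was left out of the fits on them. The call against the whole gate was lost without the exclusion of doublets and with DESeq2 (adjusted p = 0.127 and 0.197). Against CD4 cells it was at least 49.5-fold higher in the NK-receptor gate and at least 8.05-fold higher in the CD8 gate, where the call of Gzma was likewise lost (adjusted p = 0.0573 without the exclusion of doublets and 0.228 with DESeq2). Irradiated tumor 4 held 182 of the 255 and 22 of the 36 UMIs, and without it the bounds were 15.7-fold and 3.37-fold.

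Prf1 joined Gzma once the NK-receptor gate was narrowed. Against the whole gate the CD8 level differed by -0.48 ± 0.38 log2 units (adjusted p = 0.357). Against the 58 cells, in which Prf1 stood at 20.4 to 391 CPM, it was lower by a log2 difference of -2.21 ± 0.37 (adjusted p = 1.06e-05). The calls for Nkg7, Ifng and Fasl went the other way. They were higher in CD8 cells than in the whole gate by 2.52 ± 0.36, 2.10 ± 0.45 and 2.05 ± 0.24 log2 units (adjusted p = 1.16e-05, 0.000674 and 2.7e-09). Against the 58 cells the values were 0.74 ± 0.34, 0.34 ± 0.48 and 0.54 ± 0.25 (adjusted p = 0.21, 0.772 and 0.2). Gzmk stayed higher in CD8 cells, by 5.66 ± 0.85 and by 4.26 ± 1.02 against the 58 cells (adjusted p = 1.5e-05 and 0.00788), with 130 UMIs against 2. Gzmb differed by 1.38 ± 0.61 and by -0.57 ± 0.55 (adjusted p = 0.0891 and 0.642). Against the whole gate Prf1 passed without irradiated tumor 3 (adjusted p = 0.0477) and Gzmb without control tumor 2 (0.0322).

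In the 58 cells Gzma, Prf1 and Nkg7 were higher than in the CD4 gate, by 8.99 ± 1.04, 4.62 ± 0.48 and 2.07 ± 0.38 log2 units (adjusted p = 1.45e-05, 8.34e-11 and 0.00051). Fasl was higher there by 1.15 ± 0.30 (adjusted p = 0.00294) and Gzmk lower by a log2 difference of -3.54 ± 1.09 (adjusted p = 0.0248). In the whole gate Fasl and Nkg7 differed from CD4 by -0.34 ± 0.30 and 0.30 ± 0.40 (adjusted p = 0.392 and 0.601). The fitted Gzma value depends on the prior count, since CD4 cells held none, and is no bound.

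Counts of members called are read against the share of all genes called. Between CD8 and CD4 cells, 4 of 7 members were called, all higher in CD8, against 13.5% of the 6356 genes, and the median member difference was 1.72 log2 units against 0.02 for all genes. Between CD8 and Foxp3 cells 5 of 7 were called, all higher in CD8, with 21.2% of genes called and a median of 4.83 against 0.04. Between CD8 and NK-receptor cells 4 members were higher and 1 lower, with 34.8% of genes called. Against the 58 cells 1 member was higher in CD8 cells (Gzmk) and 2 were lower (Prf1 and Gzma), with 10.1% called. Between CD4 and Foxp3 cells 4 were higher in CD4 (Fasl, Nkg7, Ifng and Gzmk), with 3.34% called. The Nkg7 call there (adjusted p = 0.0349) was lost without irradiated tumor 1 or 4 or control tumor 1 or 2 (adjusted p = 0.0963, 0.147, 0.0755 and 0.0813), and also without the exclusion of doublets, with stricter gates and without a gene filter (0.06, 0.055 and 0.0871). The Gzmk call was lost without the exclusion of doublets and with DESeq2 (adjusted p = 0.114 and 0.162). Gzma differed between CD8 and Foxp3 cells by 2.67 ± 1.04 (adjusted p = 0.0772) and passed without control tumor 3 (0.0251). The NK-receptor gate differed from CD4 in 4 members, 2 in each direction, with 38.1% called (the Ifng call was lost without irradiated tumor 4 or control tumor 3, adjusted p = 0.105 and 0.0597), and from Foxp3 in 5 members, all higher, with 37.8% called. Without the exclusion of doublets the Nkg7 and Ifng calls against Foxp3 were lost (adjusted p = 0.118 and 0.0747). The 58 cells differed from CD4 in 5 members, 4 higher and 1 lower, with 20.5% called. Fasl, Nkg7, Prf1, Ifng and Gzma were higher in them than in Foxp3 cells, by 6.08 ± 0.54, 4.12 ± 0.47, 5.60 ± 0.56, 5.30 ± 0.92 and 6.57 ± 0.87 log2 units (largest adjusted p = 0.000182), with 23.5% called. All 7 members passed the filter on low counts in these fits, some of them through 1 gate, so the counts are a description.

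Genes with related roles were counted from lists. Of the 7 other granzymes, only Gzmc passed the filter. The NK-receptor gate held 3840 Gzmc UMIs, of which 3810 lay in the 58 cells with Ncr1 or Klrb1c, against 39 in CD8, 9 in CD4 and 4 in Foxp3 cells. The log2 difference between CD8 and NK-receptor cells was -6.56 ± 0.35 (adjusted p = 3.6e-15), and the 58 cells spanned 36.9 to 14565 CPM over the tumors. Gzmf had 1753 UMIs in the NK-receptor gate, of which 1752 lay in 3 of the 58 cells.

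Among 12 genes of granule content and exocytosis, 3 were higher and 2 lower in CD8 than in CD4 cells, where 13.5% of all genes were called. The median difference of the list was 0.08 log2 units, against 0.02 for all genes. Ctsw and Cst7, a protease and a protease inhibitor of cytotoxic lymphocytes, were higher by 2.30 ± 0.22 and 1.78 ± 0.26 log2 units (adjusted p = 8.28e-11 and 2.94e-06), and Ctsc, which activates granzymes by removing a dipeptide, was higher by 0.92 ± 0.30 (adjusted p = 0.0325). Stx11, a syntaxin of granule fusion, was lower in CD8 cells by a log2 difference of -2.05 ± 0.26 (adjusted p = 1.66e-07). Of 7 cytokines, chemokines and death ligands, 6 were tested, with a median difference of 1.41 log2 units. In CD8 cells 2 were higher, Xcl1 by 3.89 ± 0.98 and Ccl5 by 1.61 ± 0.48 (adjusted p = 0.0177 and 0.0288).

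Of 8 transcription factors, 2 were higher and 1 lower in CD8 than in CD4 cells, where 13.5% of all genes were called. Their median difference was 0.11 log2 units, against 0.02 for all genes. Runx3 and Eomes, factors of the cytotoxic program, were higher by 1.89 ± 0.19 and 1.90 ± 0.57 log2 units (adjusted p = 1.38e-10 and 0.0351), and Bhlhe40 was lower by a log2 difference of -0.92 ± 0.19 (adjusted p = 0.0005). Of 9 genes on the target side, 6 were tested, with a median difference of 0.05 log2 units. Serpinb9, the granzyme B inhibitor that killer cells themselves carry, was higher in CD8 cells by 1.16 ± 0.37 (adjusted p = 0.0286), and Ifngr2 and Fas were lower by log2 differences of -2.53 ± 0.64 and -0.86 ± 0.28 (adjusted p = 0.00416 and 0.0343).

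The genes most like each member over the 28 sums of 7 tumors and 4 gates were found by Pearson's r of log2 CPM, leaving out the members and the gate genes. They were Runx3 for Prf1 (r = 0.811), Mctp2 for Nkg7 (r = 0.856), Pde3b for Fasl (r = 0.909), Suco for Ifng (r = 0.825), Pawr for Gzmk (r = 0.824), Malt1 for Gzma (r = 0.736) and Sema4d for Gzmb (r = 0.687). The sums share tumors and differ in depth, so r is a description.

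Within the CD8 gate the members overlapped in part. Of the 48 cells with Prf1, all held Nkg7 and 31 held Gzmb, and Gzmb was found in 64.6% of cells with Prf1 and in 43% of those without. Gzmk and Gzmb were found together in 40 cells, Gzmk alone in 34 and Gzmb alone in 95, and Gzmb was in 54.1% of Gzmk cells against 44% of the others. Fasl was found in 68.9% of Gzmk cells and 45.8% of the others. Cells of 1 tumor are not replicates and deeper cells hold more UMIs of every gene, so these shares were not tested. At least 1 member was found in all but 8 of the 290 CD8 cells, whereas 131 of 257 CD4 cells and 100 of 191 Foxp3 cells held none.

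Other cells held few UMIs of the members, with 1 exception. Over 10599 cells of the macrophage gate, at a median of 7884 UMIs against 3960 in the CD8 gate, no member exceeded 0.462% of cells. In 91 dendritic-gate cells 2 held Gzmk and 1 held Nkg7, and in 590 endothelial-gate cells 29 held Gzmk and 1 held Prf1, with none for the other members. B cell, mast cell and granulocyte markers (9 genes) were at 0 in the CD8, CD4 and Foxp3 gates of all tumors. Of 3 plasmacytoid dendritic cell markers, 2 were found in the CD8 gate (Siglech was at 0), at a summed 171 to 444 CPM in the irradiated and 136 to 257 CPM in the control tumors. In the 121 cells without Ncr1 and Klrb1c all 3 were found, at 395 to 641 CPM and 394 to 596 CPM. Of 5 macrophage markers, all 5 were found in the CD8 gate at a summed 29.6 to 232 CPM in the irradiated and 142 to 297 CPM in the control tumors. In the Foxp3 gate they summed to 80.2 to 500 CPM and 181 to 330 CPM. Of 3 tumor markers, all 3 were found in the CD8 gate, at 51.8 to 128 CPM in the irradiated and 94.1 to 260 CPM in the control tumors, and their part in the results was not tested.

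The exception was Gzmk. Tumor-gate cells held 3729 of its 4625 UMIs, and 10.2% of the 13211 tumor-gate cells had at least 1, whereas each of the other 6 members had at most 30 UMIs in the tumor gate. The tumor-gate level was 10.4, 12.2, 13.4 and 14.8 CPM in the irradiated and 16.1, 9.82 and 14.2 CPM in the control tumors, so the groups overlapped.

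**Figure D2:**
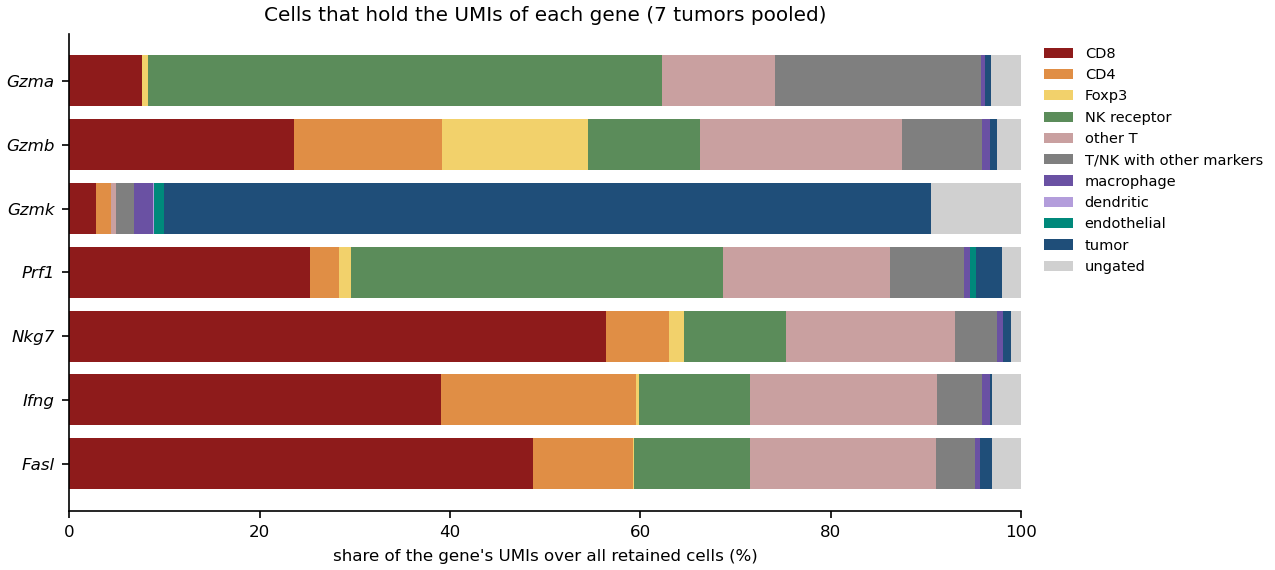
Share of each gene's UMIs (horizontal axis, percent of the UMIs in all retained cells of 7 tumors) by the class of cell that holds them, as stacked bars. Most Gzmk UMIs lie in tumor-gate cells, and for the other 6 genes the classes of T and NK-receptor cells hold most.

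Gzmk UMIs in tumor cells moved with Esm1, an endothelial secreted proteoglycan whose gene lies inside the Gzmk locus. In GENCODE vM21 (GRCm38) Gzmk spans chr13:113171608-113225908 on the minus strand and Esm1 spans chr13:113209659-113218098 on the plus strand, within an intron of the longest Gzmk transcript and outside the shorter ones. A Gzmk UMI was found in 24.3%, 25.1%, 27.8% and 26.2% of the Esm1-positive tumor cells of irradiated tumors 1 to 4 and in 30.7%, 27.6% and 24.6% of those of control tumors 1 to 3. Among Esm1-negative tumor cells the shares were 0.845% to 3.55%. The lowest share with Esm1 lay above the highest share without it. Esm1-positive cells were deeper, at a median of 26071 against 16566 UMIs, but the pooled Gzmk level was 28.6 against 1.14 CPM. The strand and intron settings of the counting are not given in the sources used here, so reads of the 2 genes cannot be told apart.

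**Figure D3:**
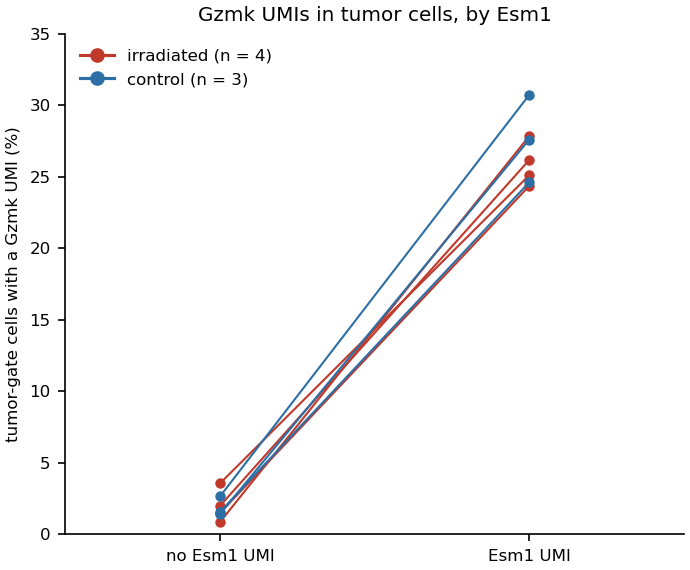
Share of tumor-gate cells with a Gzmk UMI (vertical axis, percent, from 0) without and with an Esm1 UMI, with 1 line per tumor. All 7 lines rise, from at most 3.55% to at least 24.3%.

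In T cells the 2 genes were mostly apart. Of 74 CD8 cells with Gzmk, 73 held no Esm1 UMI. In the CD4 gate 14 of 17 held none, and all 3 CD4 cells with both genes came from irradiated tumor 4, where Gzmk was 140 CPM without the Esm1-positive cells against 241 CPM with them.

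No member passed the test between irradiated and control tumors in any gate. All 7 were tested in CD8 cells, 5 in CD4, 2 in Foxp3 and 6 in NK-receptor cells. In the pool of T and NK-receptor cells and in all retained cells, all 7 were tested. The share of genes called was 0% in each of these 6 comparisons (edgeR), and 0% and 0.0157% in the tests of whether the effect in CD8 cells differed from that in CD4 and in NK-receptor cells, where no member was called (0% also among the 58 cells). An unadjusted p under 0.05 (edgeR) was found for 240 of 5641 genes tested in CD8, 375 of 5230 in CD4 and 314 of 5357 in Foxp3 cells. It was found for 273 of 6570 in NK-receptor cells, 446 of 9896 in the pool and 396 of 20433 in all retained cells. With no difference in any gene, a share of about 0.05 would be met. DESeq2 called 2 genes in all retained cells and 0 in the other 5 comparisons. On simulated counts the edgeR fit in CD8 cells recovered 11 of 100 2-fold changes, so a missing call is no limit on changes of that size.

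In CD8 cells the largest differences were those of Gzmk and Prf1. Irradiated tumor 2 had no Gzmk UMI in its 16 CD8 cells, and the other 3 irradiated tumors lay above all 3 controls. The log2 difference was 1.37 ± 0.78 (adjusted p = 0.998). Prf1 was 52 ± 32.1 CPM (SD, n = 4) in irradiated and 25 ± 6.04 CPM (n = 3) in control tumors, with 3 of 4 irradiated tumors above all controls, and differed by 1.22 ± 0.54 (adjusted p = 0.998). Nkg7 differed by 0.10 ± 0.20, Gzmb by 0.30 ± 0.24, Fasl by 0.30 ± 0.28, Ifng by 0.10 ± 0.56 and Gzma by 0.07 ± 0.84. The median over the 7 members was 0.30 log2 units.

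The share of CD8 cells with a UMI was also compared after thinning to 1000 UMIs. Gzmb was found in 29.7% ± 3.74 (SD, n = 4) of CD8 cells in irradiated and 20.2% ± 6.81 (n = 3) in control tumors, a difference of 9.54 percentage points, with 3 of 4 irradiated tumors above all controls. In the exact permutation test (two-sided) p was 0.0857, or 0.6 adjusted over the 7 shares, where the smallest p that 35 splits allow is 0.0286. The set of 3 libraries with over 7000 cells held irradiated tumor 1 and control tumors 2 and 3, and there the difference was 1.86 points. The other 4 libraries held irradiated tumors 2 to 4 and control tumor 1, and there it was 15.7 points. Each of these differences has a single tumor on one side. For the other 6 members the differences ran from -1.39 to 8.78 points (adjusted p from 0.6 to 0.914, exact permutation test).

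**Figure D4:**
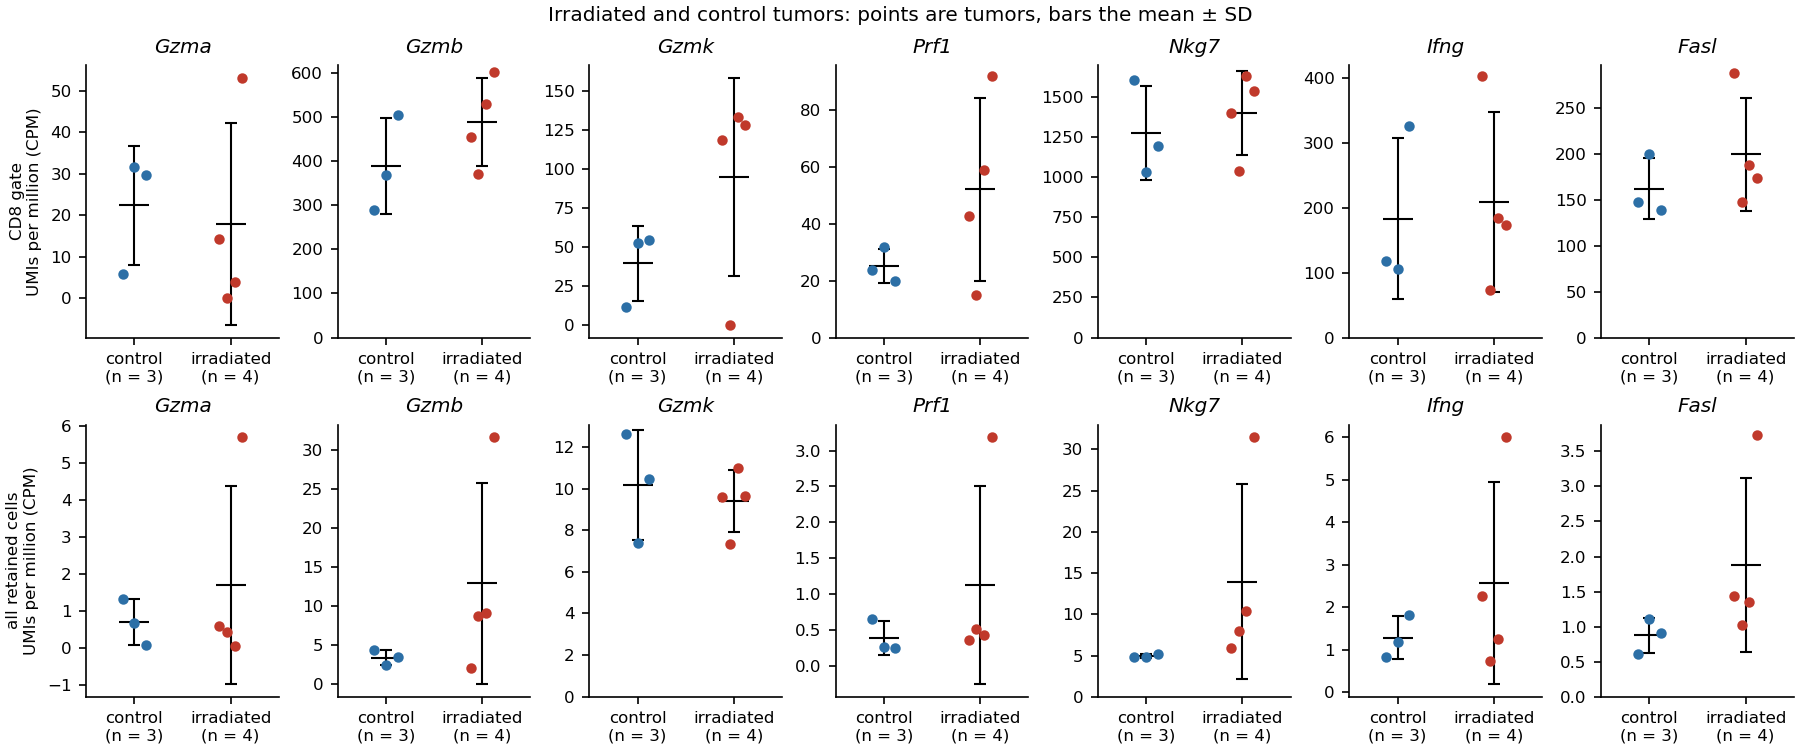
CPM of each gene (vertical axis, linear, own scale) in control and irradiated tumors, for CD8 gate cells (top) and for all retained cells (bottom), with points for tumors and bars for the mean ± SD. Irradiated tumor 4 is the highest point of 6 genes in the bottom row, and the groups overlap in the top row.

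In Foxp3 cells Nkg7 lay higher in every irradiated tumor, at 50, 88.8, 69.5 and 96 CPM, than in every control tumor, at 0, 12.9 and 0 CPM. How many of all genes separated the groups in this gate is not given here. The Nkg7 values are a description. These values rest on 58 and 1 UMIs, a ratio of 27 with a 95% counting interval of 4.66 to 1085. The log2 difference of 4.34 ± 0.85 had an adjusted p of 0.0824 and did not pass. It passed without irradiated tumor 1 (adjusted p = 0.0223) and without control tumor 2 (0.0309), and with no filter on low counts (0.0027), with adjusted p-values between 0.0027 and 1 across the alternatives. Gzmb stood at 325, 452, 582 and 646 CPM in the irradiated and 365, 116 and 94.4 CPM in the control tumors, so that 3 of 4 irradiated tumors lay above all controls. It differed by 1.14 ± 0.33 (adjusted p = 0.393), and by 2.26 without control tumor 1 (adjusted p = 0.0143). The other 5 members were too sparse in this gate to be tested.

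**Figure D5:**
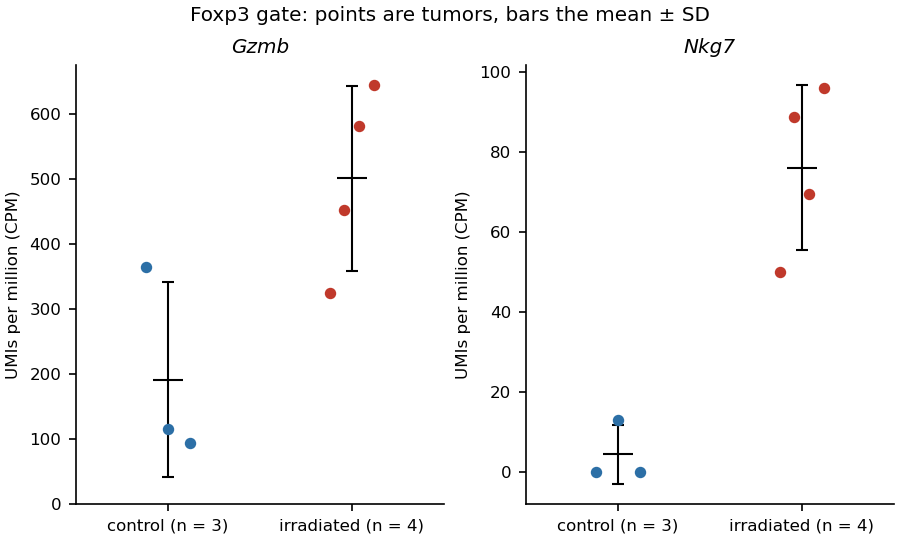
CPM of Gzmb and Nkg7 in Foxp3 gate cells of control and irradiated tumors (vertical axis, linear), with points for tumors and bars for the mean ± SD. Nkg7 is at 50 to 96 CPM in irradiated and 0 to 12.9 CPM in control tumors, and Gzmb overlaps at 1 irradiated tumor.

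In CD4 cells irradiated tumor 4 was the highest for Gzmb, Gzmk and Nkg7. Its Gzmb level was 1376 CPM, against 72.1, 655 and 347 CPM in the other irradiated and 104, 8.36 and 273 CPM in the control tumors. The log2 differences were 2.29 ± 1.26 for Gzmb, 2.28 ± 1.53 for Gzmk and 1.03 ± 0.70 for Nkg7 (adjusted p = 0.816, 0.859 and 0.857). Without that tumor Gzmb differed by 1.40 and Nkg7 by 0.31, and irradiated tumors 2 and 3 also lay above all controls for Gzmb. Fasl differed by 0.30 ± 0.47 and Ifng by -0.23 ± 1.07 (adjusted p = 0.967 and 0.992). The Ifng value turned to 0.15 without irradiated tumor 3 and to 0.78 without control tumor 3. In NK-receptor cells the differences ran from -0.95 ± 1.02 for Gzmb to 0.90 ± 0.99 for Ifng (adjusted p = 1 for all 6 members tested). In the 58 cells with Ncr1 or Klrb1c they ran from -0.49 ± 0.89 for Gzmb to 1.26 ± 0.93 for Ifng (adjusted p from 0.991 to 1).

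Over all retained cells, 6 of the 7 members had higher means in irradiated tumors, and irradiated tumor 4 had the highest value of each of the 6. The median log2 difference was 1.25 over the 7 members and -0.02 over all genes. The share of all genes with higher means in irradiated tumors is not given here. The pool of T and NK-receptor cells held 74.2% to 93% of the UMIs of each of the 6, so they are not separate observations. Nkg7 stood at 5.91, 7.99, 10.4 and 31.6 CPM in the irradiated and 4.84, 4.84 and 5.23 CPM in the control tumors, with no overlap. How many of all genes had no overlap between the groups is not given here, so this is a description. Gzmb stood at 2, 8.68, 9.08 and 31.7 CPM in the irradiated and 4.27, 2.4 and 3.37 CPM in the control tumors. The log2 differences were 1.42 ± 0.55 for Nkg7 and 1.87 ± 0.78 for Gzmb (adjusted p = 0.993 for both), and 0.64 and 0.91 without irradiated tumor 4. Gzma turned from 1.25 ± 1.33 to -0.93 without that tumor. Gzmk differed by -0.17 ± 0.21 (adjusted p = 0.993), with most of its UMIs in tumor cells.

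The share of T and NK-receptor cells moved with these sums. The pool of T and NK-receptor cells, T cells outside the 3 T cell gates included, made up 4.08%, 5.26%, 6.39% and 8.47% of retained cells in irradiated tumors 1 to 4 and 2.87%, 3.27% and 3.22% in control tumors 1 to 3. A sum over all cells holds both the number of T and NK-receptor cells and the RNA of each gene per cell, and by itself cannot tell them apart. Within the pool, Nkg7 differed by 0.19 ± 0.18 and Gzmb by 0.43 ± 0.42 (adjusted p = 0.9998 for both, edgeR). The make-up of the pool enters these values. CD8 gate cells were 16 of 120 to 65 of 242 pool cells in irradiated and 19 of 149 to 52 of 195 in control tumors. The part of cell numbers and of RNA per cell was not tested.

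CD8 gate cells made up 1.37% ± 0.675 (SD, n = 4) of retained cells in irradiated and 0.559% ± 0.264 (n = 3) in control tumors. The difference of 0.814 percentage points had an exact permutation p of 0.114 (two-sided, adjusted p = 0.19 over 4 gates), with 3 of 4 irradiated tumors above all controls. It was 0.41 points within the set of 3 larger libraries, which held only irradiated tumor 1 of its group. Within the other 4, which held only control tumor 1 of its group, it was 1.11 points. The shares of CD4, Foxp3 and NK-receptor cells differed by 0.486, 0.61 and 0.435 points (adjusted p = 0.19, 0.19 and 0.2, exact permutation test). The Foxp3 difference was -0.0407 points within the larger libraries and 0.674 points within the others.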

How the data were processed

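Single-cell 3' libraries of 7 tumors were analysed. The UMI counts deposited by the authors are whole numbers per gene and called cell, and the file headers name Cell Ranger 8.0.0. The paper names the mm10 genome and an earlier Cell Ranger version, so the version and its default for counting introns are unsettled, and the submitters' processing notes name Seurat 4.4. The annotation behind the 33696 features, and whether strand and introns were counted, are not given in the sources used here. The gene models cited are GENCODE vM21 and the promoter windows RefSeq, both on GRCm38, so they may differ from those behind the counts. All 7 members matched both by symbol, and all 7 matched GENCODE by identifier.

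The filter kept 32115 of 39537 cells, those within 3 median absolute deviations for UMIs, genes and mitochondrial and ribosomal shares in their own library. Cells with at least 3 of 7 macrophage or 4 of 9 tumor markers were kept out of the T and NK gates, and no doublet caller was run. Pairs of libraries shared 3 to 19 cell barcodes. Counts were summed per tumor and gate (sums of at least 10 cells, or 5 in the narrowed NK gate, which left out irradiated tumor 2 with 4 cells from its fits) and tested with edgeR 4.0.16 (filterByExpr with min.count 5, TMM, robust quasi-likelihood test), with Benjamini-Hochberg adjustment and a threshold of 0.05. SE is the log2 fold change divided by the square root of F. Gates were compared with the tumor as a block, and irradiated with control tumors without one. DESeq2 1.42.0 was an alternative. For shares, the exact permutation test was two-sided and enumerated 35 splits. Intervals of ratios are exact at 95% and, like the limit of 3 counts for a count of 0, cover counting error only. The libraries of the 7 tumors held 53496570 to 153044123 UMIs before the filter. The fits were run on simulated counts with known changes in 100 genes per size. For irradiated against control CD8 cells, 11 of 100 2-fold and 83 of 100 4-fold changes were recovered. The counts were 19 and 96 for all retained cells, and 26 and 98 for CD8 against CD4 cells. Most 2-fold changes were thus missed. The simulated counts had the same setting for the spread between tumors in every gene. They are therefore no guide for members that vary more, at 4-fold changes too. Over all retained cells, for example, Gzmb differed by 1.87 ± 0.78 log2 units and was not called.

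The members, gates and lists were chosen with earlier results of these data known. Named genes were the 7 members, up to 4 called members of each related list by absolute change, and the 3 genes most alike each member. Related lists are given for CD8 against CD4 cells, with the granule list also for CD8 against Foxp3 cells. The genes most alike are given by the first of each. Gzmf was named after its values were seen. Pooled ratios without single tumors were added after the data were seen.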

Additional observations from a re-analysis of the deposited data

Results flagged for a closer look

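Lone samples were looked for among the 4 irradiated tumors in 49 groups of values. Of these, 9 had a gap above the limit, and irradiated tumor 4 was the high sample in 8 of the 9. The groups share cells and some rest on few UMIs, so these counts are a description and are set against no rate by chance. In CD4 cells its Gzmk level was 241 CPM against 11.7 to 41.2 CPM in the other 3. In NK-receptor cells its Gzmb level was 384 CPM against 7.32 to 58.2 CPM. In the pool of T and NK-receptor cells its Prf1 level was 65.8 CPM against 20.8 to 25.6 CPM. In all retained cells its levels were 5.71 CPM for Gzma, 3.19 CPM for Prf1 and 3.73 CPM for Fasl, against at most 0.577, 0.51 and 1.44 CPM. In Foxp3 cells it was the only irradiated tumor with Ifng (13.1 CPM, 3 UMIs) and Fasl (4.36 CPM, 1 UMI). Irradiated tumor 2 was the low sample for Gzmk in CD8 cells, at 0 CPM in 16 cells against 118 to 133 CPM. Irradiated tumor 4 also had the largest share of T and NK-receptor cells, at 8.47% of retained cells, and the part of that share in the values was not tested.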

How the results depend on the processing

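Of 1032 member fold changes recomputed under an alternative, 940 kept their direction and their side of the threshold, as did 141 of 154 shares, and 163 of 197 gene counts stayed within 1.5 times. In the Foxp3 gate 5 of 7 members held 0 to 4 UMIs and could not be tested, and a sum of a gate held 12 to 65 cells. Equal replicate numbers did not pair the tumors (correlations of deviations -0.157 to 0.0981). With the number as a replicate block 1 gene was called in CD8, 1 in CD4 and 2 in Foxp3 cells (0 without), none a member, and the Gzma difference was -1.62 in CD8 cells, -0.818 in NK-receptor cells, -0.974 in the pool and -0.875 in all cells, and that of Prf1 -0.363 in the pool. With library size (over 7000 cells or fewer) as a term 2 genes were called in Foxp3 cells, and pool values were -0.246 for Prf1, 0.247 for Ifng and -0.0625 for Gzmb.

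Without a gene filter, irradiated and control tumors differed in 15 genes in CD8, 29 in CD4, 21 in Foxp3 (Nkg7 and Gzmb among them), 7 in NK-receptor cells and 48 in the pool, and the effect in CD8 and NK-receptor cells differed in 25 genes. DESeq2 called 2 genes in all cells and gave -0.196 for Gzma in CD8 cells. Stricter gates called 833 genes between CD8 and NK-receptor cells, 1135 between NK-receptor and CD4, 1284 between NK-receptor and Foxp3, 1 by irradiation in CD4 and 0 for the CD8 and NK-receptor difference. They gave 0.92 for Fasl and 0.47 for Gzmb between NK-receptor and CD4 cells, 0.29 for Gzmb between NK-receptor and Foxp3 cells, and 0.44 for Prf1 by irradiation in NK-receptor cells.

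Without the exclusion of doublets 129 genes were called between CD4 and Foxp3 cells and 0 for the CD8 and NK-receptor difference. Prf1 was 0.81 between CD8 and NK-receptor cells, and Nkg7 -0.93 between NK-receptor and CD4. By irradiation, Fasl, Nkg7 and Prf1 were 0.20, 0.24 and 0.49 in NK-receptor cells and Ifng 0.26 in the pool. CD8 shares with Gzma, Prf1 and Ifng differed by 0.735, -0.691 and 4.36 points. With the narrowed NK gate, chosen after the data were seen, 590 genes were called against CD8, 1192 against CD4, 1370 against Foxp3 and 0 for the CD8 and NK difference. Gzmb was then -0.57 between CD8 and NK, 1.19 between NK and CD4 and 1.00 between NK and Foxp3, Fasl and Ifng 1.15 and 0.13 between NK and CD4, and Fasl and Nkg7 0.33 and 0.032 by irradiation.

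Thinning to 2000 UMIs turned the CD8 share differences of Gzma and Ifng to 0.717 and 6.63 points, and no cell filter that of Gzmb to -0.147. The larger libraries alone, with only irradiated tumor 1 of its group, turned the CD8 share difference of Ifng to 15.4 points. There the share of the Foxp3 gate differed by -0.0407 points. As shares of T and NK-receptor cells, CD4 cells differed by -0.999 points.

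Leaving out 1 tumor at a time, 137 to 203 genes were called between CD4 and Foxp3, 0 to 1 by irradiation in CD4, 0 to 7 in Foxp3, 0 to 1 in NK-receptor cells, and 0 to 17 for the CD8 and NK-receptor difference. Gzmb between CD4 and Foxp3 ran from -0.62 to 0.010, and Gzmk between NK-receptor and Foxp3 from -0.27 to 1.66. By irradiation in CD8 cells Nkg7 ran from -0.015 to 0.31, Ifng from -0.38 to 0.85, Gzma from -0.40 to 0.48, and the Ifng share from -8.02 to 3.47 points. Ifng in CD4 cells ran from -1.28 to 0.78. In NK-receptor cells Fasl ran from -1.03 to 0.021, Prf1 from -1.54 to 0.22 and Gzma from -0.72 to 1.86. In the pool Fasl ran from -0.19 to 0.28, Prf1 from -0.54 to 0.91, Ifng from -0.56 to 0.26 and Gzma from -0.97 to 0.95. Gzma in all cells ran from -0.93 to 2.09. The causes were not tested.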
